A study of Mus musculus with 30 samples.

Results

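The adrenergic receptors are the cell-surface receptors for noradrenaline and adrenaline, and 8 of their genes were followed here: Adra1a, Adra1b, Adra1d, Adra2a, Adra2b, Adra2c, Adrb1 and Adrb3. They were chosen by name as members of the family, with no threshold on their values, out of 24601 genes in the muscularis externa (ME) table and 26179 genes over the RiboTag tables. Of the 8, the ME table lists 7 (all but Adra1d) and the RiboTag tables list 6 (neither Adra1b nor Adra1d).

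Small bowel ME, the muscle coat with its enteric nerve plexus, came from naive mice and from mice operated on, with manipulation of the gut, and killed after 3 h (IM3h), 24 h (IM24h) or 72 h (IM72h), a model of postoperative ileus. RNA was taken from the whole lysate (ME) or from an immunoprecipitation of ribosomes carrying a tagged Rpl22 (RiboTag), in which the tag is switched on by Cre so that the pulldown enriches mRNA on ribosomes of the Cre-expressing cells. All mice carried the floxed Rpl22 allele (B6N.129 Rpl22tm1.1Psam/J). In the naive and IM3h ME groups it was combined with B6.Cg-Tg73.12Mvs/J(Gfap-cre), and in the IM24h and IM72h ME groups and all RiboTag groups with B6 Tg(Sox10-icre/ERT2)388Wdr/J. The Sox10 promoter drives this Cre in glia, and the Cre needs tamoxifen, which was injected on 3 days and stopped 1 week before use. Mice were 10 to 12 weeks old. Within ME, the comparisons of IM24h and IM72h with naive or with IM3h therefore also compare 2 mouse lines, as does every comparison of RiboTag with ME at naive and IM3h. Time and line, or fraction and line, cannot be told apart in these comparisons. The tables held 3 naive and 3 IM3h libraries and 4 each at IM24h and IM72h for ME, and 3 naive and 4 libraries at each later time for RiboTag. The labels list 4 naive RiboTag samples. The 3 in the tables serve as the reference of every RiboTag time point, as the 3 naive ME libraries do for ME, so the time points are not independent of each other.

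Noradrenaline reaches the gut wall mainly from sympathetic nerve fibres. The α1 receptors couple to Gq and raise intracellular calcium, the α2 receptors couple to Gi and lower cyclic AMP, and the β receptors couple to Gs and raise it. In the gut wall, presynaptic α2 receptors restrain transmitter release, and β receptors on muscle are known to relax it.

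Library totals ran from 6603170 to 12866062 estimated counts in ME and from 3010306 to 7899493 in RiboTag. A single gene, AY036118, took 16.1% to 33.5% of the counts in naive ME libraries, 24.1% to 25.2% at IM3h and at most 6.50% at later times. In RiboTag its share was 2.02% to 14.0% in naive and IM3h libraries, 22.2% to 59.2% at IM24h and 58.0% to 80.1% at IM72h, where 8644 to 11416 genes had a count. Sox10, the transcription factor that defines enteric glia, averaged 696 CPM (counts scaled to a common library size, with TMM factors) in naive RiboTag against 16.45 CPM in naive ME, and all 9 glial markers were called higher in the pulldown. At IM24h RiboTag libraries 1 and 4 held 418 and 259 CPM of Sox10, but libraries 2 and 3 held 37.8 and 53.3 CPM (93 and 121 counts), within the ME range of 27.2 to 70.2 CPM at that time. The 4 libraries of the IM72h pulldown held 25, 6, 0 and 2 Sox10 counts, and Sox10 averaged 3.92 CPM there against 87.2 CPM in ME. The sum of the 9 glial markers in RiboTag was 1821 to 2151 CPM in naive libraries and 817 to 1091 CPM at IM24h, and at IM72h it was 1481, 161, 957 and 1172 CPM, beside 178 to 325 CPM in ME at IM72h. Between the fractions at IM72h, 1 of 7 glial markers tested was higher in RiboTag and 1 lower, beside 4.18% and 25.4% of all genes. Their median log2 difference was -0.39, beside -0.64 over all genes. At IM24h 4 of 7 were higher and 0 lower, beside 6.06% and 6.06% of all genes. Receptor and pathway values of the IM24h and IM72h pulldowns are given below with Sox10 within the ME range of the same time in 2 of 4 libraries and below it in 4 of 4, in that order. In bulk RNA, fewer cells of a type and less receptor RNA per cell cannot be told apart.

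After filtering on low counts, 5 receptors could be tested against naive in each fraction: Adra1a, Adra2a, Adra2b, Adrb1 and Adrb3. A receptor was called at an adjusted p under 0.05 (edgeR's quasi-likelihood test with Benjamini-Hochberg adjustment over all genes tested), and all adjusted p-values below are of this kind unless another tool is named. In ME at IM3h, 3 receptors were lower than naive (Adra2b, Adrb1, Adrb3) and 0 higher, where 13.4% of all tested genes were called lower and 19.3% higher. At IM24h the same 3 were lower and 0 higher, with 13.4% of genes lower and 15.6% higher. At IM72h Adra1a, Adra2b and Adrb3 were lower and 0 receptors higher, with 28.3% of genes lower and 29.3% higher. In all 9 of these calls the groups did not overlap, and the exact two-sided permutation test gave the smallest p its design allows, 0.1 for 3 against 3 libraries and 0.0571 for 4 against 3. The 9 were picked by the edgeR test on the same libraries, so their separation is no further support. The share of all genes without overlap was not counted. Requiring an unadjusted p under 0.05 and more than 2-fold change left 1 lower receptor at IM72h (Adra1a), beside 15.6% of genes. In RiboTag 0 receptors were called at any time. Of all genes tested there, 4.44% were lower and 8.86% higher at IM3h, 0.131% lower and 0.366% higher at IM24h, and 15.1% lower and 1.05% higher at IM72h. An unadjusted p under 0.05 was reached in RiboTag by 2 receptors at IM3h and by 0 at IM24h and IM72h, and DESeq2's Wald test called 2, 0 and 0. The median log2 change over the 5 tested receptors in ME was -1.21 after 3 h, -1.05 after 24 h and -0.71 after 72 h, beside medians of 0.001, 0.021 and 0.023 over all genes tested.

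**Figure D1:**
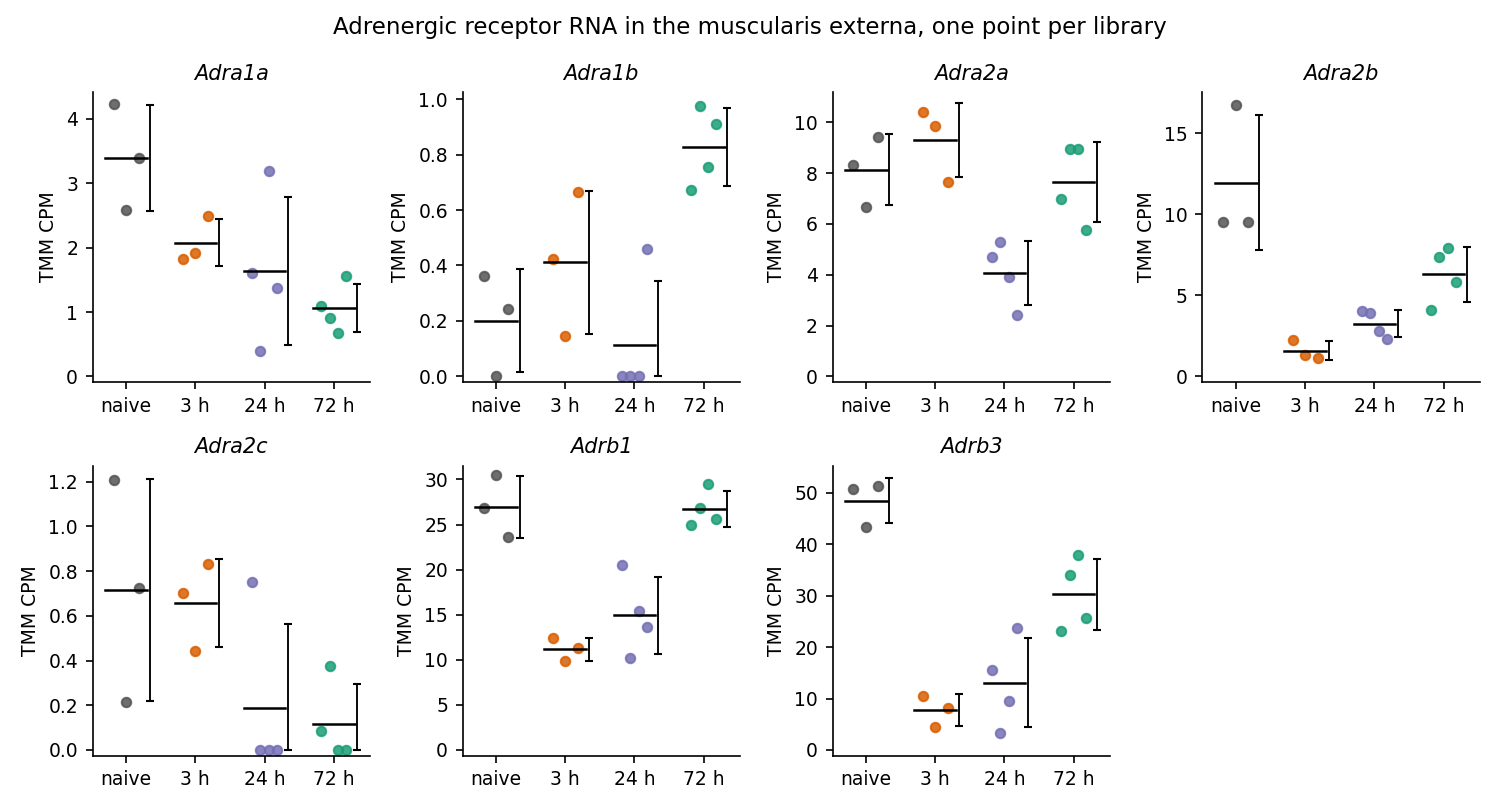
Level of 7 adrenergic receptors in each ME library (y axis, TMM-scaled CPM on a linear scale of its own in each panel) by time after manipulation (x axis); points are libraries, the horizontal line is the group mean and the bar 1 SD, cut at 0. The group means of Adrb3, Adrb1 and Adra2b are lowest at 3 h, and Adrb1 is back between 25.0 and 29.5 CPM at 72 h. The 3 h and 24 h libraries overlap for Adrb3 and Adrb1, and the lowest Adrb3 library (3.40 CPM) is at 24 h.

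The promoter-side sequences of 2 receptors that fell together in ME are shown because they belong to different branches of the family: Adra2b, a Gi-coupled receptor, and Adrb1, a Gs-coupled one. Each run holds the 250 bases before the RefSeq transcription start in GRCm38.p6, 5′ to 3′ on the gene's own strand, which is the plus strand for both. Adra2b spans chr2:127363208-127367221 in mm10 (GENCODE) and its run chr2:127362929-127363178. Adrb1 spans chr19:56722199-56733113 and its run chr19:56721867-56722116. Capitals mark the cyclic AMP response element TGACGTCA, its half-site TGACG or the AP-1 site TGANTCA, searched on both strands, where a full element also counts as a half-site.
Adra2b: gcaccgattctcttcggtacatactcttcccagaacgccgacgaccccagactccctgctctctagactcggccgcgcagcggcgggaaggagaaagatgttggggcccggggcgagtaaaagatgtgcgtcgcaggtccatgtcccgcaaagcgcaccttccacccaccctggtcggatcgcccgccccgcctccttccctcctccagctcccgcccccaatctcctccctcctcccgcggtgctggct
Adrb1: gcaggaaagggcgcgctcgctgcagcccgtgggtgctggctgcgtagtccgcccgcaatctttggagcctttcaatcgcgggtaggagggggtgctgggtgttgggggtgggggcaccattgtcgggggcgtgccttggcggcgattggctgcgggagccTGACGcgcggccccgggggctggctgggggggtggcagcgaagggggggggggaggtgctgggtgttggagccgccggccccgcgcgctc
The Adrb1 run holds 1 half-site, starting 90 bases before the transcription start, and no full element or AP-1 site. None of the 3 motifs occurs in the Adra2b run. Across 32851 promoter runs of the same length, 17.8% hold a half-site, 1.55% a full element and 6.75% an AP-1 site. Of the 8 receptors, 5 had an entry in the RefSeq promoter table used.

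Of the α1 receptors, Adra1a (chr14:66635251-66771168, plus strand) was the only one with enough counts to test. In naive ME its 3 libraries held 4.22, 2.58 and 3.39 CPM, from 12 to 35 counts each. At IM3h the values were 1.83, 1.92 and 2.49 CPM, all below the lowest naive library, but the change was not called (log2 fold change -0.675 ± 0.39 SE, adjusted p = 0.213). Scaling to Actb, Hsp90ab1 and Rplp1 made it a call (log2 -1.09, adjusted p = 0.0486). At IM24h the libraries spread from 0.400 to 3.18 CPM and overlapped with naive (log2 fold change -1.05 ± 0.67 SE, adjusted p = 0.268). By 72 h Adra1a stood at 1.09, 0.901, 0.678 and 1.56 CPM, below every naive library, and was called 3.28-fold lower (log2 fold change -1.71 ± 0.37 SE, adjusted p = 0.00222). Leaving out each of the 7 libraries in turn kept this call, with a highest adjusted p of 0.0141.

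Adra1a was the one receptor called higher in the naive pulldown than in naive ME. Naive RiboTag libraries held 5.94, 8.43 and 13.8 CPM (47, 75 and 117 counts), each above the 3 naive ME libraries, a 3.50-fold difference (log2 1.81 ± 0.475 SE, adjusted p = 0.0223). In this comparison of naive fractions 1 receptor was higher (Adra1a) and 1 lower (Adrb3) in RiboTag, where 13.4% of genes tested were higher and 12.7% lower. The call for Adra1a was lost when any naive ME library (number 1, 2 or 3) or RiboTag library 3 was left out, with adjusted p from 0.0741 to 0.101, while the log2 difference stayed between 1.40 and 2.01 over all 6 such fits. At IM3h the pulldown held only 1.69, 3.61, 2.31 and 2.51 CPM, all below naive, and RiboTag and ME overlapped. Against naive this was a 3.54-fold lower level (log2 -1.82 ± 0.63 SE) with an unadjusted p of 0.0133 in edgeR and an adjusted p of 0.0783. It was called by DESeq2's Wald test (adjusted p = 0.0230), and it met a looser threshold, an unadjusted p under 0.05 with more than 2-fold change, which 8.86% of genes met downward. At IM24h the pulldown ranged from 3.13 to 25.6 CPM and at IM72h from 0.473 CPM (1 count) to 45.9 CPM, so that both groups overlapped with naive. Beside ME the difference was log2 3.33 ± 1.02 SE at IM24h (adjusted p = 0.0541; DESeq2's Wald test, adjusted p = 0.00102) and log2 5.19 ± 1.28 SE at IM72h (adjusted p = 0.0135). At IM72h the 2 fractions overlapped, and the exact two-sided permutation test gave p = 0.143, where the smallest possible is 0.0286. At IM72h Adra1a was the 1 receptor called, and it was higher in RiboTag, beside 4.18% of genes higher and 25.4% lower. That last call was lost without ME library 1, 2 or 3 (adjusted p 0.0568, 0.0627 and 0.0631), and in RiboTag it rests on libraries with almost no Sox10. At IM3h and IM24h edgeR called 0 receptors between fractions. An unadjusted p under 0.05 was reached by 0 receptors at the first of these times and by 1 (Adra1a) at the other, as was a DESeq2 call. After 3 h 11.8% of genes were higher in RiboTag and 12.2% lower, and after 24 h 6.06% and 6.06%. By the looser threshold 1 receptor, Adra1a, was higher at IM24h, beside 11.5% of genes.

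Over all libraries of a fraction, the transcript model Adra1a-204, annotated as a retained intron, took 51.5% of the Adra1a counts in ME and 58.7% in RiboTag. In naive RiboTag it held 30, 46 and 80 of the estimated counts in the 3 libraries, and in naive ME 17, 6 and 18. The protein-coding model Adra1a-202 was second in RiboTag with 33.0%. Of its 227 counts, 114 came from IM24h, where its libraries held 18, 32, 40 and 24 counts and Adra1a-204 held 7, 0, 18 and 21. Reads of these libraries come from the 3′ end of transcripts, and how they were shared among models was not tested.

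Adra1b (chr11:43774606-43901210, minus strand) was under the count filter in all ME comparisons. Its libraries held 3, 0 and 2 counts in naive ME, 3, 1 and 4 at IM3h, and 0, 0, 0 and 4 at IM24h. At IM72h they held 8, 13, 10 and 14 counts (0.671 to 0.977 CPM), above every library of the other 3 groups. Tested without the filter on low counts, the IM72h difference from naive had an adjusted p of 0.0444, and naive libraries were at or under 3 counts, so no fold is given. Adra1d (chr2:131545850-131562283, minus strand) is listed in neither fraction.

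Of the α2 receptors, Adra2b was called lower than naive in ME at all 3 times. The gene is intronless and lies on the plus strand of chromosome 2, with its upstream run printed above. Naive ME libraries held 9.53, 16.8 and 9.55 CPM from 78 or 79 counts each, and IM3h libraries held 2.25, 1.33 and 1.16 CPM from 16, 9 and 7 counts. No IM3h library came near a naive one, and Adra2b was called 7.09-fold lower (log2 -2.83 ± 0.39 SE, adjusted p = 3.9e-04). At IM24h the 4 libraries held 4.04, 3.90, 2.82 and 2.29 CPM, above IM3h and below naive without overlap (log2 against naive -1.86 ± 0.36 SE, adjusted p = 0.00388). At IM72h they held 4.11, 7.36, 7.91 and 5.84 CPM, still below naive (log2 -0.92 ± 0.28 SE, adjusted p = 0.0140). The order of the group means was naive, IM72h, IM24h, IM3h, and no 2 neighbours in it overlapped. Between IM24h and IM72h the rise of 1.88-fold was just outside the threshold in edgeR (log2 0.91 ± 0.33 SE, adjusted p = 0.0501) and inside it in DESeq2 (adjusted p = 0.0262), and the exact two-sided permutation test over the 8 libraries gave p = 0.0286, the smallest p that 4 against 4 can give. The IM72h call depended on naive library 2, the one with 16.8 CPM: without it the log2 change was -0.62 and the adjusted p 0.0746. Scaling to the library total also ended it (log2 -0.30, adjusted p = 0.327).

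In the pulldown Adra2b was sparse. Naive libraries held 9.10, 1.57 and 4.01 CPM (72, 14 and 34 counts) and IM3h libraries 0.923, 0.285, 1.97 and 0 CPM, with overlapping ranges (log2 -2.56 ± 1.30 SE, adjusted p = 0.237). At IM24h and IM72h 2 of 4 libraries each had no Adra2b count, and the highest held 7.14 and 7.96 CPM. Both late groups overlapped with naive. Without IM72h library 4, which held 13 counts where the others held 1 or 0, the IM72h difference was called (adjusted p = 0.0379).

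Adra2a (chr19:54044151-54048982, plus strand), the receptor best known for presynaptic inhibition of noradrenaline release, did not follow Adra2b. Its naive ME libraries held 8.33, 6.66 and 9.43 CPM and its IM3h libraries 10.4, 9.87 and 7.63 CPM. These ranges overlapped, and the log2 difference was 0.235 ± 0.24 SE (adjusted p = 0.491); scaling to the library total or to Actb, Hsp90ab1 and Rplp1 turned its sign (-0.03 and -0.18). At IM24h the level was 4.70, 5.30, 3.91 and 2.41 CPM, below all naive libraries, with log2 -1.002 ± 0.37 SE and an adjusted p of 0.0668 in edgeR against 0.0456 in DESeq2. At IM72h it was 6.96, 8.94, 8.97 and 5.78 CPM, overlapping with naive (log2 -0.13 ± 0.22 SE, adjusted p = 0.63). The rise from IM24h to IM72h was called (1.82-fold, log2 0.87 ± 0.31 SE, adjusted p = 0.0480), one of 2 receptors higher (with Adrb1) and 0 lower in that comparison, beside 18.6% of genes higher and 19.9% lower. By an unadjusted p under 0.05 with more than 2-fold change 1 receptor was higher (Adrb3), beside 12.7% of genes. Of the 8 fits with a library left out, the call for Adra2a was lost without IM24h library 1, 3 or 4 or IM72h library 1, 2 or 3 (adjusted p 0.0595 to 0.138). It was also lost with scaling to the library total (0.0519) or to Actb, Hsp90ab1 and Rplp1 (0.102). The same held without the filter on low counts (0.0521) and without AY036118 and rRNA genes (0.0525). In RiboTag, naive libraries held 1.90, 4.16 and 2.95 CPM, each below the naive ME libraries (log2 -1.08 ± 0.49 SE, adjusted p = 0.138). IM3h libraries ranged from 15.6, 7.98 and 3.12 CPM down to 0, and the difference from naive was log2 1.203 ± 1.173 SE (adjusted p = 0.581). Counts were seen in 1 of 4 libraries at IM24h and 2 of 4 at IM72h.

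Adra2c (chr5:35278319-35281763, plus strand) was near the limit of detection. Naive ME libraries had 10, 1 and 6 counts and IM3h libraries 5, 3 and 5. The IM24h libraries had 8, 0, 0 and 0 and the IM72h libraries 1, 5, 0 and 0. In RiboTag it had 2, 26 and 2 counts in naive libraries and 11, 0, 9 and 6 at IM3h, and 0 counts in each of the 8 later libraries, which allows up to 3 counts per library. Without the filter on low counts none of its comparisons with naive was called (lowest adjusted p 0.0551, ME at IM72h).

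The β1 receptor Adrb1, the classical cardiac β receptor, fell early in ME and returned. Naive ME libraries held 26.8, 30.5 and 23.6 CPM (222, 142 and 195 counts), and IM3h libraries held 12.4, 9.87 and 11.3 CPM. The groups were well apart, and Adrb1 was called 2.32-fold lower (log2 -1.21 ± 0.18 SE, adjusted p = 6.51e-04). At IM24h the libraries held 20.5, 10.2, 15.4 and 13.6 CPM, again all below naive (log2 -0.85 ± 0.24 SE, adjusted p = 0.0249). This IM24h call was lost without IM24h library 3 or without naive library 1, 2 or 3 (adjusted p 0.0525 to 0.0971), and under scaling to the library total (log2 -0.20, adjusted p = 0.571). At IM72h the libraries held 25.0, 26.8, 29.5 and 25.6 CPM, within the naive range of 23.6 to 30.5 CPM (log2 -0.04 ± 0.13 SE, adjusted p = 0.827). The position of Adrb1 relative to naive at IM72h was set by the scaling: log2 0.575 when scaled to the library total (adjusted p = 0.00329) and -0.635 when scaled to Actb, Hsp90ab1 and Rplp1 (adjusted p = 0.00713). Those 2 scalings shifted every gene in ME at IM72h by 0.58 and -0.64 on the log2 scale relative to TMM. From IM24h to IM72h Adrb1 rose 1.75-fold with no overlap (log2 0.805 ± 0.205 SE, adjusted p = 0.00988; exact two-sided permutation p = 0.0286, the smallest possible), a call that scaling to the 3 genes removed (log2 0.59, adjusted p = 0.169).

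In naive RiboTag Adrb1 stood at 16.0, 17.0 and 30.1 CPM (127, 151 and 255 counts), which overlapped with naive ME, and the fitted difference was log2 0.01 ± 0.29 SE (adjusted p = 0.993). At IM3h it was 2.61, 5.32, 6.36 and 0 CPM, below every naive library (log2 -2.49 ± 0.88 SE). In edgeR the unadjusted p was 0.0149 and the adjusted p 0.0845. DESeq2's Wald test called it (adjusted p = 0.0271), as did edgeR without the filter on low counts (0.0375) and without IM3h library 4, the library with no Adrb1 count (log2 -2.09, adjusted p = 0.00989). With Adra1a it was one of the 2 receptors past that looser threshold. At IM24h the libraries held 23.0, 0, 93.4 and 0 CPM and at IM72h 0, 41.6, 0 and 0 CPM, so a single library set the mean of the last group. Without IM72h library 2, all Adrb1 counts at that time were 0 and the difference from naive was called (adjusted p = 0.0190). In ME 97.9% of Adrb1 counts fell on the intronless single-exon protein-coding model. In RiboTag this was 84.0%, and the processed transcript Adrb1-202 took the other 16.0%, mostly from IM24h libraries 1 and 3 with 75 and 81 counts.

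Adrb3 (chr8:27225776-27250616, minus strand), the receptor known for fat breakdown in adipocytes and for relaxation of gut muscle, fell 6.06-fold in ME at IM3h. Naive libraries held 50.7, 43.4 and 51.3 CPM (420, 202 and 424 counts) and IM3h libraries 10.6, 4.42 and 8.13 CPM (75, 30 and 49 counts), a log2 change of -2.60 ± 0.26 SE (adjusted p = 5e-05). At IM24h the 4 libraries were uneven, at 15.5, 3.40, 9.55 and 23.7 CPM, and all were below naive (log2 -1.90 ± 0.47 SE, adjusted p = 0.0128). At IM72h they held 23.2, 34.1, 38.0 and 25.7 CPM, still below each naive library (log2 -0.71 ± 0.17 SE, adjusted p = 0.00425). Scaling to Actb, Hsp90ab1 and Rplp1 took the IM24h call past the threshold (log2 -2.11, adjusted p = 0.0531). Scaling to the library total ended the IM72h call (log2 -0.12, adjusted p = 0.621), as did a single fit over all 4 ME groups (log2 -0.68, adjusted p = 0.185). The order of the means was that of Adra2b, and IM72h against IM24h (log2 1.185 ± 0.435 SE, adjusted p = 0.0512) and IM24h against IM3h overlapped. The antisense gene Gm45470 overlaps Adrb3 on the opposite strand. Whether strand was used in counting is not given in the sources used here.

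**Figure D2:**
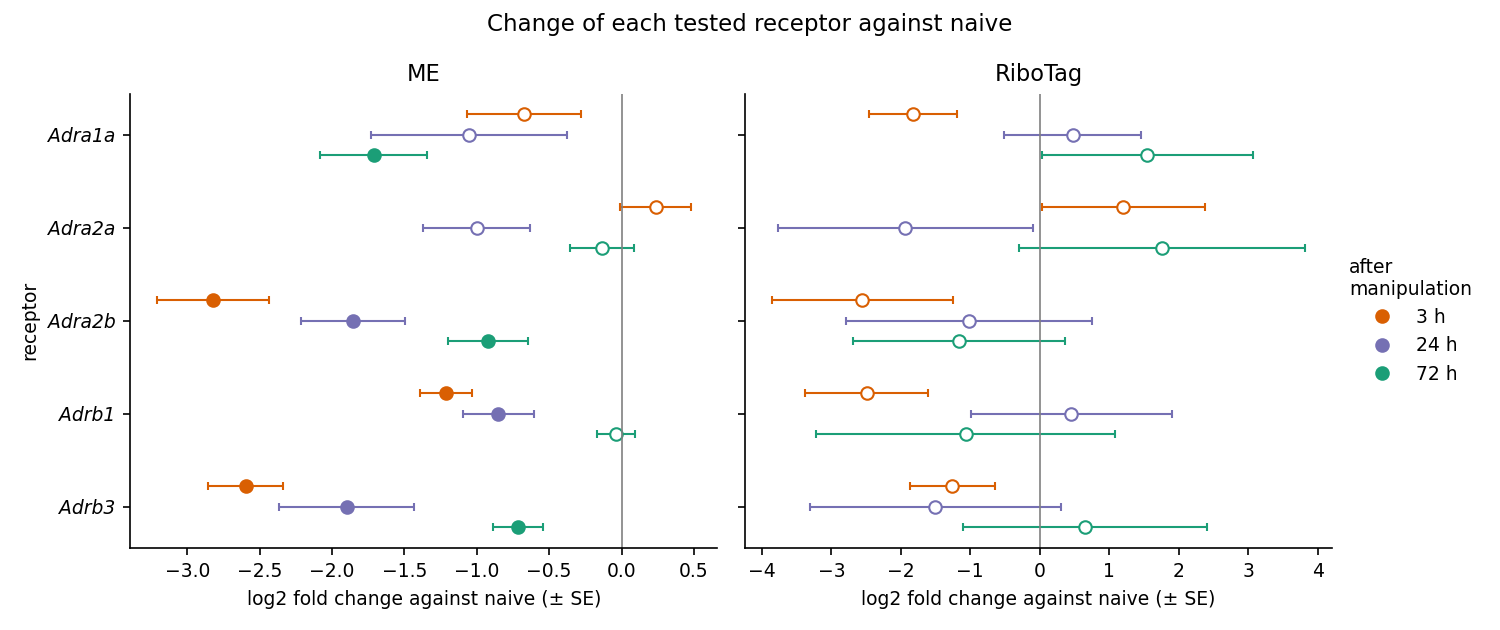
log2 fold change against naive (x axis, ± SE) of the 5 tested receptors (y axis) in ME (left) and RiboTag (right), coloured by time after manipulation; filled points had an adjusted p under 0.05 in edgeR's quasi-likelihood test. In ME, 9 of 15 points are filled and all 9 lie left of 0, and in RiboTag none of 15 is filled and the bars are wider.

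In naive mice Adrb3 was lower in the pulldown than in ME. Naive RiboTag libraries held 4.42, 8.99 and 16.0 CPM, all under the lowest naive ME library at 43.4 CPM, a 3.85-fold difference (log2 -1.94 ± 0.40 SE, adjusted p = 0.00785). Scaling to the library total left log2 -1.20 and an adjusted p of 0.0536. At later times the fractions were not called different, with log2 -0.60 ± 0.50 SE after 3 h (adjusted p = 0.427; 0.20 when scaled to the library total), -1.57 ± 1.54 SE after 24 h (adjusted p = 0.552) and -0.45 ± 1.17 SE after 72 h (adjusted p = 0.835). At IM3h RiboTag libraries held 4.92, 3.61, 4.74 and 2.42 CPM (log2 against naive -1.26 ± 0.61 SE, adjusted p = 0.212), at IM24h 12.9, 0, 0 and 0 CPM, and at IM72h 0, 28.0, 17.2 and 15.9 CPM. At IM72h the counts of 2 libraries, 64 and 18, fell on the model Adrb3-203, which held no count in RiboTag at any other time. In ME 99.6% of Adrb3 counts fell on a single protein-coding model.

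Between IM24h and IM72h in RiboTag, 2 receptors could be tested (Adra1a and Adrb3) and 0 were called, with 0% of genes called higher or lower by edgeR. Neither receptor had an unadjusted p under 0.05, and DESeq2's Wald test called 0 receptors.

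Whether the change from naive differed between fractions was tested as an interaction, and 0 receptors were called at any time. An unadjusted p under 0.05 was reached by 1 receptor after 3 h, 0 after 24 h and 1 after 72 h, and DESeq2's Wald test called 0, 0 and 1. Among all genes, 0.959% had a higher and 0.698% a lower change in RiboTag after 3 h, 0.274% and 0.263% after 24 h, and 2.15% and 21.1% after 72 h. By the looser threshold 1 receptor was higher after 3 h and 1 after 72 h, beside 5.99% and 4.64% of genes. The smallest p-values belonged to Adrb3 at IM3h, with log2 -1.26 ± 0.61 SE in the pulldown (adjusted p = 0.212, not called) and -2.60 ± 0.26 SE in ME (interaction log2 1.42 ± 0.61 SE, unadjusted p = 0.0339 in edgeR, adjusted p = 0.289), and to Adra1a at IM72h (log2 2.93 ± 1.30 SE, unadjusted p = 0.0418 in edgeR, adjusted p = 0.131). For Adrb1 at IM3h the interaction was log2 -1.21 ± 0.99 SE (adjusted p = 0.654).

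**Figure D3:**
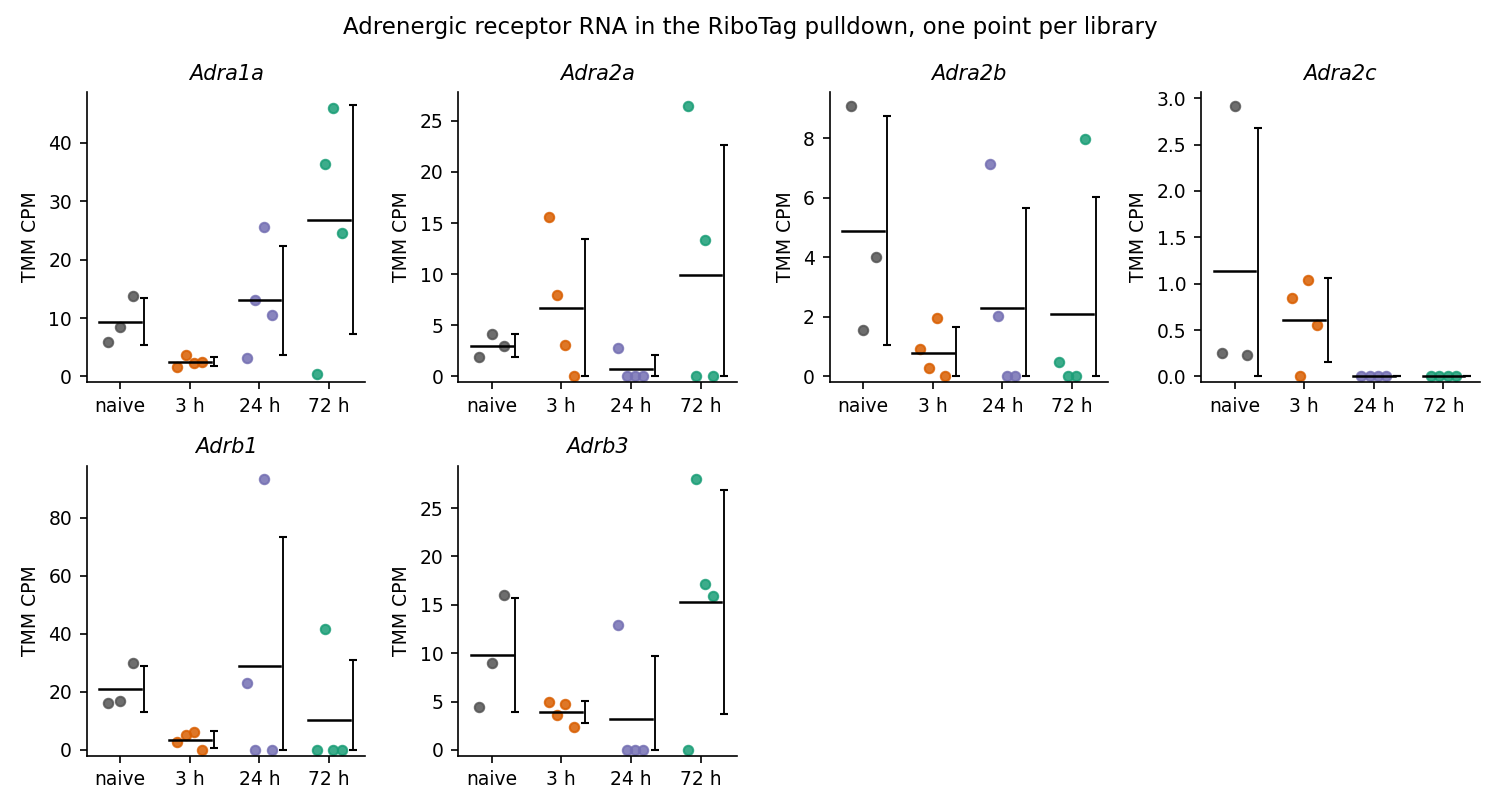
Level of the 6 receptors listed in RiboTag in each pulldown library (y axis, TMM-scaled CPM, linear scale of its own in each panel) by time after manipulation (x axis), drawn as for ME, with the SD bar cut at 0. At 24 h and 72 h libraries without a count stand beside single high ones, such as Adrb1 at 93.4 and 41.6 CPM.

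Markers of several cell types moved in ME over the same times as the receptors. Beside their counts stand all tested genes, of which 13.4% were lower and 19.3% higher after 3 h, 13.4% and 15.6% after 24 h, and 28.3% and 29.3% after 72 h, so that counts such as 3 of 9 lower after 72 h are near the share over all genes. The 6 mesothelial markers (Msln, Upk3b, Wt1, Lrrn4, Krt19, Upk1b) summed to 136 to 169 CPM in naive libraries, 15.8 to 64.0 at IM3h, 7.59 to 121 at IM24h and 41.95 to 105 at IM72h, with 5 of 6 called lower at IM3h, 1 of 6 at IM24h and 4 of 6 at IM72h. Within IM24h, library 2 had the lowest mesothelial sum (7.59 CPM) and the lowest Adrb3 (3.40 CPM), and library 4 the highest of both (121 and 23.7 CPM), while libraries 1 and 3 had like mesothelial sums (23.1 and 23.2 CPM) at 15.5 and 9.55 CPM of Adrb3. The smooth muscle sum of these libraries, 9420, 3426, 5832 and 11290 CPM in libraries 1 to 4, had the order of Adrb3 in all 4. Adra2b did not share that order, since library 4 held the lowest Adra2b at 2.29 CPM. The 7 adipocyte markers summed to 304 to 472 CPM in naive ME, 251 to 559 at IM3h, 88.2 to 115 at IM24h and 54.2 to 114 at IM72h. Of 6 tested, 0 were called at IM3h, when the group mean of Adrb3 was lowest, and 5 were lower at IM24h and IM72h. The brown fat marker Ucp1 had 1 count in naive ME. The 8 smooth muscle markers summed to 23030 to 24700 CPM in naive ME, 17100 to 20390 at IM3h, 3426 to 11290 at IM24h and 13200 to 21560 at IM72h, with 2, 6 and 4 of 8 lower and 0 higher. The 6 fibroblast markers summed to 2625 to 2763 CPM in naive ME, 1171 to 1388 at IM3h with 5 lower, 1772 to 4093 at IM24h with 1 lower and 1 higher, and 4344 to 5166 at IM72h with 3 higher. Markers of the interstitial cells of Cajal, the gut's pacemaker cells, fell in 3 of 4 genes after 3 h, 1 after 24 h and 4 after 72 h, with sums of 365 to 371 CPM in naive libraries and 157 to 181 CPM at the last time. Macrophage markers were called higher in 1 of 8, 5 of 8 and 8 of 8 genes in turn, and lower in 2 at IM3h, with sums of 224 to 256 CPM in naive libraries and 1329 to 1576 CPM at IM72h. Neutrophil markers rose in 2 of 3 tested genes after 3 h and in 5 of 5 at each later time, and 1 of the 6 markers, Ly6g, was not listed in ME. Of 6 endothelial markers 1, 3 and 4 were higher and 0 lower, and of 5 pericyte markers 0, 2 and 3 were lower and 0, 1 and 0 higher. The 9 glial markers summed to 148 to 168 CPM in naive ME, 136 to 143 at IM3h, 119 to 154 at IM24h and 178 to 325 at IM72h, and of 8, 8 and 9 tested 3, 2 and 3 were lower and 2, 1 and 4 higher. Of 9 neuronal markers 1, 2 and 3 were lower and 1, 1 and 2 higher, and of 6 epithelial markers 0, 2 and 0 were lower and 0, 0 and 2 higher. In RiboTag the mesothelial sum was 111 to 288 CPM in naive libraries and 10.7 to 72.8 CPM at IM3h, with 4 of 5 tested markers lower. At that time 4 of 6 fibroblast, 3 of 8 smooth muscle and 3 of 9 glial markers were also lower in RiboTag, as was 1 of 4 markers of the Cajal cells, 1 of 6 of endothelium and 1 of 5 of pericytes, while 1 glial and 1 neuronal marker were higher, beside 4.44% of all genes lower and 8.86% higher. None of the macrophage, neutrophil, adipocyte and epithelial markers tested in RiboTag at IM3h was called by edgeR. The adipocyte sum in RiboTag was 16.3 to 51.8 CPM in naive libraries and 78.3 to 457 CPM at IM72h, when Adipoq and Cidec were at 0. The part of these cell types in the receptor changes was not tested.

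**Figure D4:**
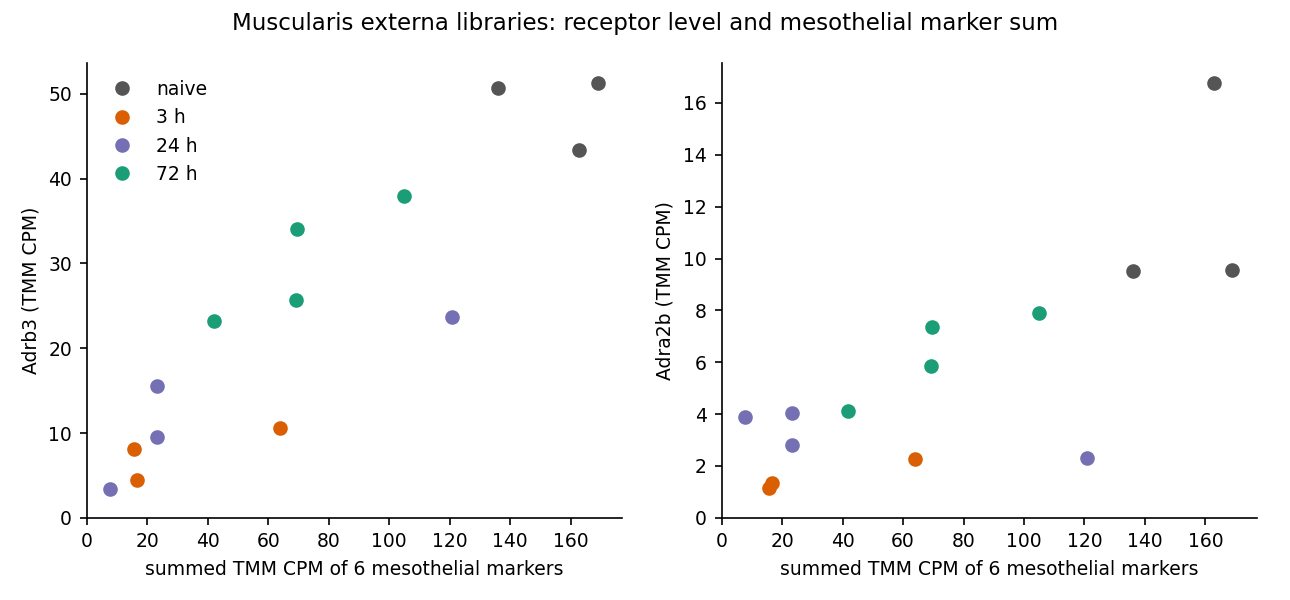
Adrb3 (left) and Adra2b (right) in TMM-scaled CPM (y axes) against the summed CPM of 6 mesothelial markers (x axes) in the 14 ME libraries, coloured by time after manipulation. The naive libraries lie at the upper right, and all but one of the IM3h and IM24h libraries have a sum of at most 64.0 CPM and an Adrb3 level of at most 15.5 CPM. An IM24h library with a sum of 121 CPM has 23.7 CPM of Adrb3 but only 2.29 CPM of Adra2b.

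The 3 genes whose log2 CPM over the 14 ME libraries was most like each receptor are given as a description, since all 14 share the time points, lines and scaling. For Adrb3 they were Gpm6a (Pearson's r 0.96), Igfbp6 (0.95) and Lrrn4 (0.95), the last of which is on the mesothelial list. For Adra2b they were Tab1 (0.92), Meis1 (0.92) and Ankmy2 (0.91), and for Adrb1 Plekho1 (0.94), Myg1 (0.93) and Tab1 (0.93). Adra2a was most like Gid4 (0.92), Bnip2 (0.92) and Apol6 (0.92), and Adra1a most like Fmn2 (0.95), Dcp1a (0.93) and Gm14794 (0.92). In the 15 RiboTag libraries the most like genes were Kif15 (0.90), Olfr1535 (0.90) and C030017G13Rik (0.89) for Adra1a, Pag1 (0.90), Orai2 (0.88) and Brdt (0.88) for Adra2a, Tbcd (0.86), Col3a1 (0.83) and Gm10048 (0.81) for Adra2b, Dele1 (0.92), Rdh5 (0.91) and Gm47246 (0.90) for Adrb1, and Tgfbr1 (0.91), Map1lc3b (0.88) and Tmed10 (0.86) for Adrb3. No gene was among the first 3 of a receptor in both fractions.

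The machinery around the receptors was followed through 6 gene lists. They were chosen with earlier results of these data known, so no count here tests the lists against all genes. Their counts in ME stand beside 13.4% of all tested genes lower and 19.3% higher after 3 h, 13.4% and 15.6% after 24 h, and 28.3% and 29.3% after 72 h. In RiboTag 4.44% of genes were lower and 8.86% higher after 3 h, 0.131% and 0.366% after 24 h, and 15.1% and 1.05% after 72 h. On the supply side, the list of noradrenaline synthesis, release and clearance had 12 genes, of which 8 were tested in ME at IM3h and 1 was called lower: Ddc, the decarboxylase of catecholamine synthesis (log2 -1.13 ± 0.20 SE, adjusted p = 0.00171). At IM24h 2 of 9 tested were lower and 0 higher, with Ddc at log2 -2.22 ± 0.39 SE and the monoamine oxidase Maob at -1.31 ± 0.19 SE. At IM72h 4 of 9 were lower and 1 higher. Maob (log2 -1.16 ± 0.10 SE), Dbh, which makes noradrenaline from dopamine (-0.91 ± 0.32 SE), and the vesicular transporter Slc18a2 (-0.90 ± 0.155 SE) were among the lower ones, and Npy, a co-transmitter of sympathetic nerves, was the higher one (0.91 ± 0.21 SE). Of all genes tested, 13.4% were lower after 24 h and 28.3% after 72 h. The list's median log2 change in ME was 0.05, -0.28 and -0.79 at the 3 times, beside 0.001, 0.021 and 0.023 over all genes. In RiboTag, 0 of 7 tested were called at IM24h and 2 were lower at IM72h (Dbh and Maob).

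Of the G protein α subunits, 10 of 11 were tested in ME after 3 h and 24 h and all 11 after 72 h, with 2, 4 and 6 lower and 1, 1 and 2 higher in turn, beside 13.4%, 13.4% and 28.3% of all genes lower and 19.3%, 15.6% and 29.3% higher. Gnas, which encodes the Gs subunit that β receptors use, was lower at IM24h (log2 -1.10 ± 0.20 SE, adjusted p = 0.00241) and IM72h (-1.22 ± 0.21 SE, adjusted p = 5.73e-04). The inhibitory subunit Gnao1 was lower at all 3 times (log2 -0.46, -2.06 and -0.89), whereas Gnai3 was higher at IM3h (0.85 ± 0.135 SE) and IM24h (1.13 ± 0.16 SE), and Gna15 rose at IM72h (2.07 ± 0.45 SE). In RiboTag 1 of 10 was lower at IM3h (Gnaz, log2 -1.51 ± 0.40 SE), where 4.44% of all genes were lower, and 0 of 9 were called at IM24h or IM72h.

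Among the adenylyl cyclases, which make cyclic AMP, 7 of 9 were tested in ME and 3 were lower at each time, beside 13.4%, 13.4% and 28.3% of all genes. Adcy5 fell by 0.42, 1.69 and 1.04 on the log2 scale at the 3 times, and Adcy7 by 1.11, 1.80 and 0.57. Adcy9 was lower at IM3h (log2 -0.89 ± 0.17 SE) and Adcy1 at IM24h (-1.17 ± 0.31 SE) and IM72h (-1.36 ± 0.15 SE), while Adcy4 was higher at IM3h (1.51 ± 0.50 SE) and IM72h (1.96 ± 0.33 SE). The list's median was log2 -0.42, -1.17 and -0.35, beside 0.001, 0.021 and 0.023 over all genes. In RiboTag 1 of 6 was lower at IM3h (Adcy7, log2 -2.69 ± 0.54 SE), 0 were called at IM24h and 1 was lower at IM72h (Adcy3). For the protein kinase A subunits and inhibitors, 9 of 9 were tested in ME, with 3, 2 and 4 lower and 0, 0 and 1 higher, beside 13.4%, 13.4% and 28.3% of all genes lower and 19.3%, 15.6% and 29.3% higher. The catalytic subunit Prkacb fell at all 3 times (log2 -0.48, -0.99 and -1.10). In RiboTag Prkar2a, a regulatory subunit, was the 1 higher gene at IM3h (0.89 ± 0.225 SE), 0 were called at IM24h, and the catalytic subunit Prkaca was the 1 lower gene at IM72h (log2 -5.50 ± 1.61 SE, adjusted p = 0.0417).

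The phospholipase C arm, which α1 receptors use, had 11 of 11 genes tested in ME, of which 0 were lower and 1 higher after 3 h, 3 lower and 3 higher after 24 h, and 4 lower and 3 higher after 72 h. The shares of all genes were 13.4% lower and 19.3% higher, 13.4% and 15.6%, and 28.3% and 29.3%. The kinase Prkcd was higher at all 3 times (log2 1.08, 1.25 and 1.57), and Plcb4 and Plcb1 were lower at IM72h (-1.75 ± 0.12 SE and -1.23 ± 0.16 SE). No gene of this list was called in RiboTag against naive at any time, by edgeR. Between the naive fractions, which also differ in mouse line, 5 of 11 were higher and 2 lower in RiboTag, beside 13.4% of all genes higher and 12.7% lower. Among the higher ones were Itpr3, a calcium release channel (log2 2.09 ± 0.27 SE), the protein kinase Prkca (1.995 ± 0.19 SE) and Plcb1 (1.41 ± 0.17 SE), and Plcb4 was lower (-1.06 ± 0.24 SE). The list's median between the naive fractions was log2 0.77, beside -0.01 over all genes tested. At IM3h, where Adra1a was not called between fractions, 4 of 11 were higher and 1 lower (median log2 0.71), beside 11.8% and 12.2% of all genes. At IM24h 3 were higher and 0 lower (median 1.22), beside 6.06% and 6.06%. At IM72h 0 were called (median 0.31), beside 4.18% higher and 25.4% lower.

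The list of receptor desensitisation, holding receptor kinases, arrestins, RGS proteins and anchoring proteins, had 17 of 17 genes tested in ME. At IM3h 4 were higher and 1 lower, at IM24h 5 higher and 7 lower, and at IM72h 5 of each. These stand beside 19.3% of all genes higher and 13.4% lower, 15.6% and 13.4%, and 29.3% and 28.3%, so the counts at IM72h were near the share over all genes. Rgs16, which speeds the shut-off of Gi and Gq, rose by log2 4.62 ± 0.32 SE at IM3h in ME (adjusted p = 4.55e-06) and 3.78 ± 0.54 SE in RiboTag (adjusted p = 9.94e-04). Akap12, an anchor that holds protein kinase A near β receptors, rose by log2 1.48 ± 0.12 SE in ME and 2.38 ± 0.27 SE in RiboTag, and the arrestin relative Arrdc4 by 1.36 ± 0.29 SE and 2.45 ± 0.74 SE. Akap5, another such anchor, was lower in RiboTag at IM3h (log2 -4.56 ± 0.33 SE, adjusted p = 1.7e-05) and in ME at IM24h (-1.41 ± 0.25 SE). At IM72h in ME the arrestin Arrb2 was higher (log2 1.93 ± 0.12 SE), and Akap12 (-1.81 ± 0.17 SE) and the pericyte gene Rgs5 (-1.57 ± 0.15 SE) were lower. In RiboTag 0 of 16 tested were called at IM24h, and at IM72h 1 was higher and 3 were lower, beside 1.05% and 15.1% of all genes. The higher one was Akap5 (log2 2.22 ± 0.45 SE, adjusted p = 0.0123), which had been lower at IM3h. Rgs16, higher at IM3h, was lower at IM72h (log2 -7.61 ± 1.38 SE, adjusted p = 0.0144), as were the receptor kinase Grk5 (-4.61 ± 0.92 SE) and Rgs5 (-1.895 ± 0.51 SE). These IM72h values come from the pulldown with almost no Sox10. Scaling to the library total or to Actb, Hsp90ab1 and Rplp1 shifts log2 differences from naive there by -1.8 and -1.639. How these genes fare under those scalings was not tested.

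**Figure D5:**
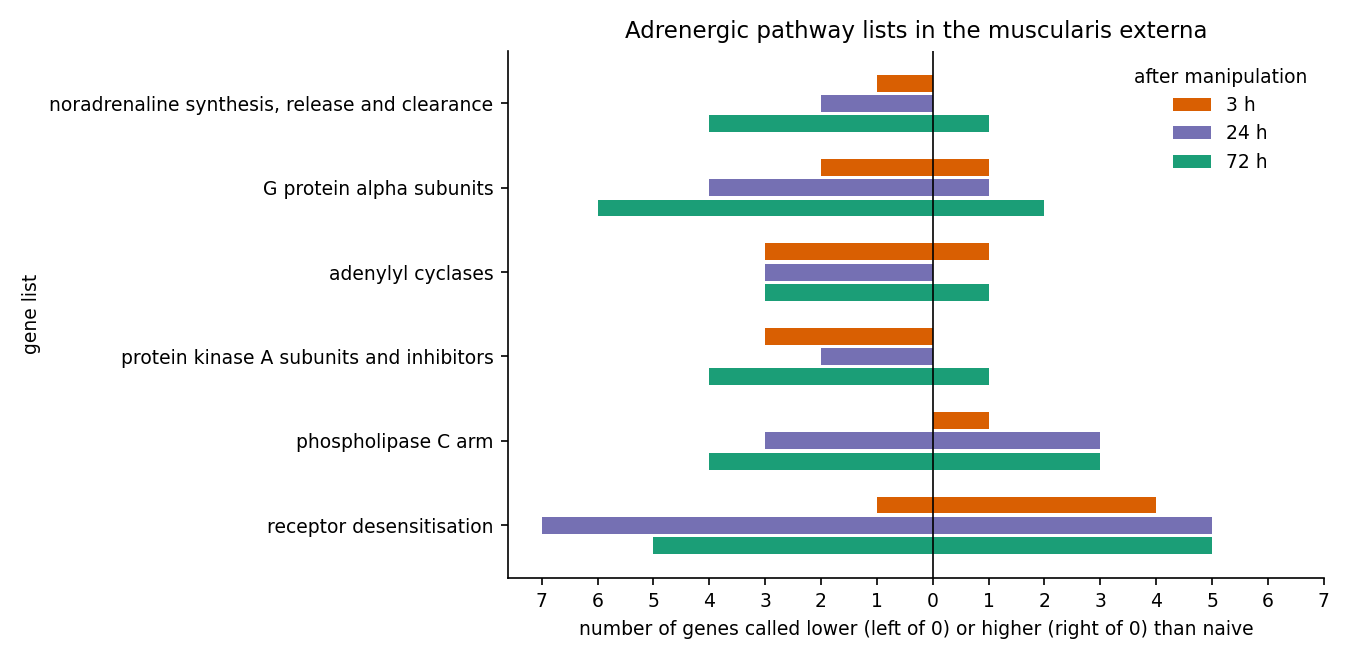
Number of genes called lower (left of 0) or higher (right of 0) than naive in ME (x axis, adjusted p under 0.05) for each of 6 lists of the adrenergic pathway (y axis), coloured by time after manipulation. At 3 h the desensitisation list has 4 genes higher and 1 lower, and the cyclase list has 3 lower and 1 higher. The lists were chosen with earlier results of these data known.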

How the data were processed

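Estimated counts per gene (ME) or transcript (RiboTag, ME) were deposited by the authors. Libraries were made with a 3′ mRNA kit (QuantSeq), read as 50 single-end bases and, per the study's methods and the submitters' processing notes, trimmed with cutadapt, aligned with STAR to mm10 and quantified in Partek Flow on Ensembl release 99 transcripts. The authors' own comparison tables (p-values, fold changes, group means) were not used. Here transcripts were summed to genes, rounded, filtered with filterByExpr, TMM-scaled and fitted with edgeR 4.0.16 (quasi-likelihood, Benjamini-Hochberg, call at 0.05) on the groups compared. DESeq2 1.42.0 was an alternative. R 4.3.3, limma 3.58.1 and Python 3.11.15 with SciPy 1.17.1 were used. Permutation tests were exact and two-sided. The scripts were tested on simulated data. Groups were read from the treatment column of each table, and libraries were numbered by the order of their names. The study describes its sequencing groups as separate mice, and libraries were treated as replicates on that basis, although the table lines name no animal. A count of 0 allows up to 3 counts, for counting error only. Members and lists were chosen with earlier results of these data known. All receptors were reported, with up to 4 called genes of each pathway list by absolute log2 fold change (fewer where the text is brief), and the 3 genes most correlated with each receptor (log2 CPM, prior count 2). Alternatives changed the scaling, filter, tool, groups fitted, call rule and libraries. One gene of the noradrenaline list is not reported here.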

Additional observations from a re-analysis of the deposited data

Results flagged for a closer look

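In 30 groups of 4 libraries, one per receptor, fraction and time, a single library stood apart by Dixon's criterion in 6. In 5 of these the other 3 libraries were at 0, so any count in the remaining one meets the criterion by construction. The rate of about 1 in 20 groups that chance flags holds for continuous values, so it gives no measure for these counts. In RiboTag at IM24h, library 1 alone held Adra2a (2.755 CPM) and Adrb3 (12.9 CPM). In RiboTag at IM72h, library 2 alone held Adrb1 (41.57 CPM), and library 4 held 7.964 CPM of Adra2b where the others held 0.473 CPM or 0. In ME at IM24h, library 4 alone held Adra1b (0.4586 CPM, 4 counts) and library 1 alone held Adra2c (0.7522 CPM, 8 counts).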

How the results depend on the processing

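No paired analysis was possible because the lines of the count tables carry no replicate numbers. The study's methods take an input portion and the pulldown from the same lysate. At IM24h and IM72h, where the mouse lines match, ME and RiboTag libraries may therefore share mice. The comparisons between fractions and the interactions treated them as independent. In ME at IM3h the 3 receptors called stayed called in all 6 fits with a library left out (lowest and highest count 3). Over the leave-one-out fits the count of receptors called ranged from 2 to 4 in ME at IM24h and IM72h, from 1 to 4 between IM72h and IM24h in ME, from 0 to 1 in RiboTag at IM3h and IM72h, from 1 to 3 between naive fractions, from 0 to 3 between fractions at IM24h and 0 to 2 at IM72h, and from 0 to 1 in the interactions at IM24h and IM72h. Without IM24h RiboTag library 1, Adra1a, Adra2a and Adrb3 were called between fractions at IM24h (adjusted p 0.0279, 0.0265 and 0.0195), and without IM72h RiboTag library 2 or 4 Adrb1 (0.000919) or Adra2b (0.00438) was called at IM72h. The removal left Adra2a and Adrb3 at IM24h, and Adrb1 at IM72h, with no pulldown count, so those calls follow from the library removed. IM24h RiboTag library 1 also held the most Sox10 of its group (418 CPM). Between naive fractions Adra2b was called without RiboTag library 1 (0.0363), and Adra2a was called in ME at IM24h without IM24h library 2 (0.0496). From IM24h to IM72h in ME, Adra2b was called without IM24h library 1 or 2 or IM72h library 1 (0.0414 to 0.0476), and Adrb3 without IM24h library 2 or 4 (0.039 and 0.00776). Signs turned in some leave-one-out fits of values that were not called: log2 -0.05 to 0.856 for Adra1a and -1.349 to 0.88 for Adrb1 in RiboTag at IM24h, -0.127 to 0.06 for Adrb1 in ME at IM72h, and between fractions -0.376 to 0.126 for Adrb1 (naive), -0.941 to 0.314 for Adra2a (IM3h), -1.936 to 0.293 for Adra2b and -0.571 to 1.671 for Adrb1 (IM24h) and -0.814 to 1.035 for Adra2a (IM72h).

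DESeq2's Wald test called 2 receptors in RiboTag at IM3h, 4 in ME at IM24h, where edgeR called 3 (Adra2a added, adjusted p = 0.0456), 4 from IM24h to IM72h in ME, 1 between fractions at IM24h and 1 in the IM72h interaction. Without the filter on low counts 1 was called in RiboTag at IM3h, and Adrb1 had log2 0.067 in ME at IM72h and -0.067 between naive fractions. From IM24h to IM72h in ME, leaving out this filter made Adrb3 a call (log2 1.248, adjusted p = 0.0416) and ended that of Adra2a. The rule of an unadjusted p under 0.05 with more than 2-fold change gave 2 in RiboTag at IM3h, 1 in ME at IM72h, 1 from IM24h to IM72h in ME, 1 between fractions at IM24h, and 1 in each of the IM3h and IM72h interactions. In ME at IM24h Adrb1 (log2 -0.851) failed this rule and Adra2a (log2 -1.002, unadjusted p = 0.0216 in edgeR) met it. Adra2a in ME at IM24h was also called with Actb, Hsp90ab1 and Rplp1 (log2 -1.483, adjusted p = 0.024) and in one fit over all groups (-0.998, 0.0131). From IM24h to IM72h in ME, 1 was called with the library total or without AY036118 and rRNA genes, 0 with Actb, Hsp90ab1 and Rplp1 and 4 in one fit over all groups. Between naive fractions 1 was called with the library total, and 5 were lower in ME at IM72h with Actb, Hsp90ab1 and Rplp1. Scaling to the library total turned log2 values to -0.784 (Adra1a) and -0.743 (Adrb1) in RiboTag at IM24h, to -0.405 (Adra1a), -0.076 (Adra2a) and -1.167 (Adrb3) in RiboTag at IM72h, to -0.034 (Adra2a, IM3h), 0.453 (Adra2a, IM72h) and 0.575 (Adrb1, IM72h) in ME, and between fractions to 0.764 (Adra2a), 0.156 (Adra2b) and 0.203 (Adrb3) at IM3h and -0.876 (Adra2a) at IM72h. Scaling to Actb, Hsp90ab1 and Rplp1 turned them to -1.547 (Adra1a) and -1.273 (Adrb1) in RiboTag at IM24h, to -0.083 (Adra1a), -0.058 (Adra2a) and -1.024 (Adrb3) in RiboTag at IM72h, to -0.179 (Adra2a) in ME at IM3h, and between fractions to 0.261 (Adra2a, IM3h) and -0.241 (Adra2a, IM72h). Against TMM, the library total and the 3 reference genes shifted the log2 differences from naive in RiboTag by -0.145 and -0.402 after 3 h, -1.009 and -1.65 after 24 h and -1.8 and -1.639 after 72 h, and in ME by -0.198 and -0.355, 0.643 and -0.418, and 0.581 and -0.64, a shift of the library scale factors that all genes of a comparison share. For the other changes the cause was not tested. In RiboTag at IM24h and IM72h, low totals outside AY036118 and libraries without a count limit what could be detected.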
